A study of Mus musculus with 18 samples.

Results

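Gene expression of mouse embryonic stem (ES) cells was compared between 4 h (ESRL) and 15 min (ESRE) after 10 Gy IR. The comparison used 6 of the 18 samples of the series, 3 ESRL and 3 ESRE samples, taken by the times in the sample labels. The ES cells came from blastocysts and were grown with leukemia inhibitory factor and no feeder cells. Beside them stood 3 samples of unirradiated ES cells and, for the comparison between cell types, isogenic cells differentiated by depletion of this factor (ED), of which 3 were collected 15 min (EDRE) and 3 were collected 4 h (EDRL) after 10 Gy. Nothing in the labels says that the samples of a group came from separate cultures, so the p-values measure only a spread between samples, which may be technical. In the main fit this spread was pooled within groups over all 18 samples of the series, unirradiated ED cells included.

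IR breaks DNA. The kinase ATM senses double-strand breaks and signals to p53, a transcription factor that raises the mRNA of its targets. Among these targets, Mdm2 feeds back on p53, Cdkn1a stops the cell cycle, and Fas, Bax, Pmaip1 and Bbc3 act in cell death. ES cells divide fast, have a weak arrest before replication and die readily after IR. The phosphatase PP2A, on which the study centers, removes phosphates that ATM and its substrates gain.

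Each sample was hybridized to 1 one-color array. A level is the log2 signal of a probe minus that of the 75th percentile probe on the same array, so that a level of -6 lies near the dim end and a level of 6 near the bright end. Of the probes, 71.5% to 85.7% were well above background on the ESRE arrays and 63.3% to 79.4% on the ESRL arrays. ESRE replicates 1 and 2 and ESRL replicates 2 and 3 shared one scan time. The unirradiated ES arrays shared another, with no ESRE or ESRL array among them. A difference between ES and ESRE or ESRL cannot be told apart from one between scans. ESRE replicate 3 was scanned with the ED arrays, and ESRL replicate 1 alone, on another scanner and with the lowest 75th percentile signal of the 6 arrays (1952, against 2806 to 3344). Across probes, replicates correlated at 0.976 to 0.986 in ESRE and at 0.954 to 0.976 in ESRL. The change is therefore given from all 3 against 3 arrays and, where it differs, from the 4 arrays of the shared scan within a fit of all arrays ("within the scan").

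Summed stem cell markers were far above the ED level at both times. The summed linear signal of 10 stem cell markers, in units of the 75th percentile, was 536 to 547 in unirradiated ES cells, 619 to 734 in ESRE and 487 to 531 in ESRL, against 18.1 to 23.9 in unirradiated ED cells. The sum of 8 markers of differentiated cells was 28.7 to 34.4 in ESRE and 26.9 to 36.6 in ESRL, against 417 to 528 in ED cells. Single markers went against their list: Thy1, held as a marker of differentiated cells, had a mean level of 1.16 in ES and -8.71 in ED cells, and Klf4 3.84 and 3.89. Both sums used outlier spots as measured. As linear sums they are carried by the brightest markers. In ESRE these were Dppa5a, Pou5f1 and Zfp42 (mean levels 8.12, 7.32 and 6.56) and, for differentiated cells, Vim (4.73, followed by Col1a1 at 1.32). The part of the lower stem cell sum at 4 h in any other result was not tested, and in a bulk sample fewer cells of a type and less RNA per cell cannot be told apart.

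From 15 min to 4 h, 157 of 22643 genes tested rose (0.693%) and 1025 fell (4.53%), 5.22% in either direction, where a call needed both an adjusted p below 0.05 (limma) and a change of more than 1 on the log2 scale. With each array set to its median instead, the median change over all probes went from -0.06 to 0.17, and 314 genes rose and 690 fell, so that rises made up 31.3% of the calls in place of 13.3%. With normexp background correction 21 genes rose and 45 fell, and with the test limited to probes detected above background on each of the 6 arrays 100 rose and 158 fell. Leaving out ESRL replicate 2 gave 304 and 2550 calls, leaving out ESRL replicate 1 101 and 544, ESRE replicate 2 99 and 364, and ESRE replicate 3 99 and 414. Within the scan, 138 genes rose (0.621%) and 437 fell (1.97%), of which 80 and 388 were also called from all 6 arrays. The 4 arrays of the scan are part of the 6, so these 2 sets of calls are not independent. Both sets take their spread from a fit of all arrays of the series. The 6 arrays alone gave 35 and 89 calls in limma, and the 4 arrays of the scan alone 0 and 0. The methods' t-test after Benjamini-Hochberg also gave 0 and 0. Of 22438 probes measured on all 6 arrays, 26.9% did not overlap between the groups. On the arrays measured, 166 of 168 called probes that rose and 987 of 1030 that fell did not overlap. In 19 and 59 of the called probes an array was left out. The calls were made from the same values, so these counts add no support to them.

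Most probes called lower were dim. Probes that rose had a median level of -3.47 in ESRE, -2.10 in ESRL and -3.18 in unirradiated ES cells. Probes that fell had medians of -4.77 in ESRE, -6.77 in ESRL and -4.81 in ES. Of the fallen probes, 28.4% were well above background on all 3 ESRL arrays, so that for the rest the size of the fall is only a bound. Among probes with a level under -6, averaged over both groups, 26.7% fell, among those from 0 to 2 0.276%, and above 2 0.140%, while the share that rose was 0.187% to 0.988% in every class. These shares are set in part by the filter, since a dim probe that fell could enter through ESRE alone. Where each of the 6 arrays detected the probe above background, 0 of 47 under -6 and 125 of 3629 from -6 to -4 fell, against 405 of 5880 tested from -6 to -4. Transcripts with an mRNA accession made up 60.7% of the probes that rose, 44.2% of those that fell and 68.8% of those not called. The median negative control level was -8.98 to -8.28 on the ESRE arrays and -9.48 to -8.20 on the ESRL arrays.

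**Figure D1:**
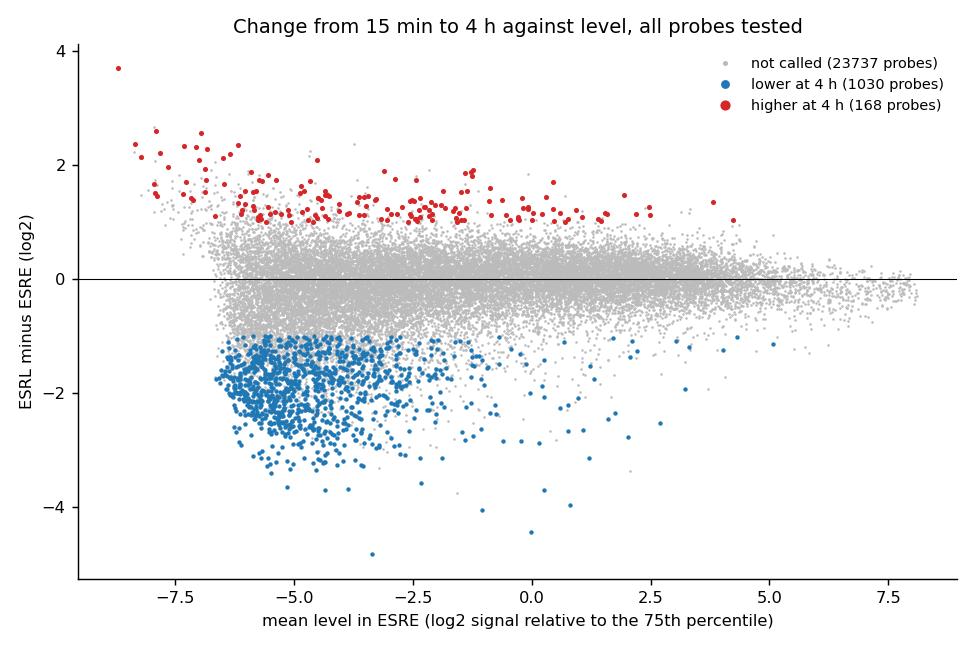
Change from 15 min to 4 h (ESRL minus ESRE, log2) of every probe tested against its mean level in ESRE (log2 signal minus that of the 75th percentile), with 168 probes called higher in red and 1030 called lower in blue. Red points lie at all levels, and most blue points lie at levels under -2.

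Among the rises were genes of the p53 response. Mdm2, the ubiquitin ligase that degrades p53, had levels of 4.32, 4.19 and 4.20 in ESRE and of 5.49, 5.15 and 5.21 in ESRL. All ESRL samples lay above all ESRE samples, and Mdm2 rose 2.06-fold (log2 change 1.04, SE 0.14, adjusted p = 0.00103). Within the scan the change was 0.92 (adjusted p = 0.00365), under the log2 limit of 1. Its mean was 4.42 in unirradiated ES cells and 4.24 in ESRE.

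Trp73, which encodes the p53 relative p73, went from -1.18, -1.46 and -1.17 in ESRE to 0.27, 0.55 and 1.02 in ESRL. The groups did not overlap, and the rise was 3.69-fold (log2 change 1.88, SE 0.27, adjusted p = 0.00107), with 2.11 within the scan. A second probe rose by 1.86 and another gave 1.55 (adjusted p = 0.0859). The ES mean of Trp73 was -1.51.

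Fas, a death receptor, had levels of -4.38, -4.16 and -4.30 in ESRE and of -3.03, -3.20 and -3.47 in ESRL. It rose 2.07-fold (log2 change 1.05, SE 0.21, adjusted p = 0.00939) without overlap. Within the scan the change was 0.94 (adjusted p = 0.0753), and another Fas probe gave 0.88 (adjusted p = 0.0282).

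The next genes had the largest rises among RefSeq genes well above background on all 6 arrays. Tnfrsf18, a receptor of the TNF family known from T cells, had levels of -6.18, -6.47 and -6.38 in ESRE and of -4.32, -4.28 and -3.86 in ESRL. It rose 4.56-fold (log2 change 2.19, SE 0.31, adjusted p = 9.28e-04), and a second probe, well above background on 1 ESRE array, by 2.56. P2rx6, an ATP-gated channel subunit, went from -6.39, -5.86 and -6.27 to -3.15, -4.59 and -3.73. Its 5.10-fold rise was the largest of these (log2 change 2.35, SE 0.38, adjusted p = 0.00271), and it was also called within the scan, at 1.97.

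Scn3b, a beta subunit of voltage-gated sodium channels, went from -1.23, -1.34 and -1.21 to 0.82, 0.34 and 0.46. This was a 3.48-fold rise (log2 change 1.80, SE 0.27, adjusted p = 0.00143), and a second probe rose by 1.60.

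Matn1, a matrix protein of cartilage, rose by 1.89 (adjusted p = 0.00939), from a mean of -3.11 ± 0.11 (SD, n = 3) to -1.22 ± 0.28. Art4, of the ADP-ribosyltransferase family, rose by 1.82 (adjusted p = 0.0032), from -5.55 ± 0.28 to -3.73 ± 0.18. The homeobox gene Nkx2-9 rose by 1.74 (adjusted p = 0.00291), from -2.45 ± 0.07 to -0.71 ± 0.25. Matn1, Art4 and Nkx2-9 were called within the scan too. Agtr1b, an angiotensin receptor, rose by 1.73 (adjusted p = 0.0349), from -5.74 ± 0.15 to -4.01 ± 0.15, but it was not called within the scan (adjusted p = 0.0895) and stayed called when leaving out only 1 of the 6 arrays in turn.

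**Figure D2:**
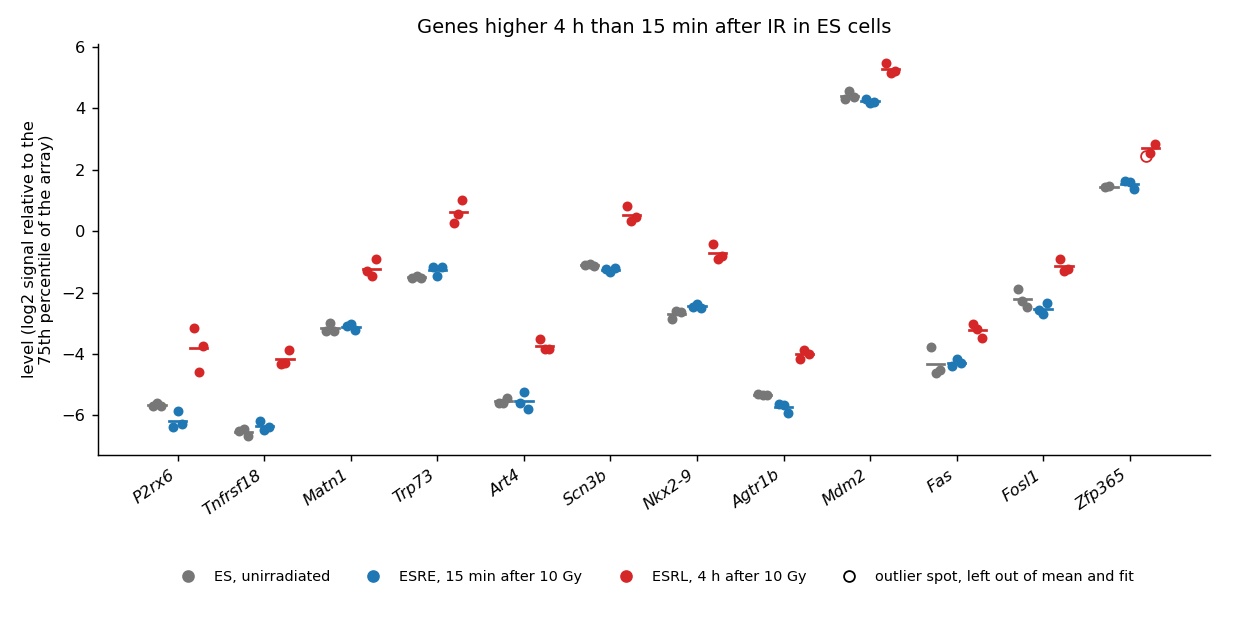
Levels of 12 genes that rose, in each array of ES, ESRE and ESRL (log2 signal minus that of the 75th percentile), with lines at group means and open circles for outlier spots left out. Every filled ESRL point lies above the ESRE points of its gene, and the ES mean of Mdm2 is 4.42 against 5.28 in ESRL.

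The 250 bases before the transcription starts were searched for the 10-base unit of the p53 response element, which is its own reverse complement, so that one search covers both strands. Promoters were taken from RefSeq (build GRCm38.p6) and matched by symbol for 69 of the 92 RefSeq-named genes that rose. The unit was found in 13 of these 69 (18.8%) and in 28 of 342 genes that fell (8.19%). It was found in 846 of 11431 genes tested (7.4%) and in 8.20% of all 27025 genes with a promoter. A match is a run of letters and not a shown binding site. The 13 include Ttll6 and Vmp1. Of the genes named by rule that rose, 10 had a promoter, and 4 of these held the unit, Mdm2, Art4, Agtr1b and Nkx2-9, each 1 time. Their sequences are shown because they set the match in its context, in lower case with the unit in capitals, on the strand of the gene. They are chr10:117710890-117710989 for Mdm2, where the unit lies 186 to 177 bases before the start, chr6:136857620-136857719 for Art4 (74 to 65 bases before), chr3:20367202-20367301 for Agtr1b (79 to 70 bases before) and chr12:56613285-56613353 for Nkx2-9 (24 to 15 bases before), all on the minus strand:
Mdm2: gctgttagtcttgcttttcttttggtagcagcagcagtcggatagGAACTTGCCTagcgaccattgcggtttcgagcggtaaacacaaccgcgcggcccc
Art4: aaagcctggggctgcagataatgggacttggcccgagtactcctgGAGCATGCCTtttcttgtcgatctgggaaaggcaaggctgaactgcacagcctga
Agtr1b: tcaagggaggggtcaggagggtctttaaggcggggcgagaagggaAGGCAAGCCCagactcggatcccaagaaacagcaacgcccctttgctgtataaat
Nkx2-9: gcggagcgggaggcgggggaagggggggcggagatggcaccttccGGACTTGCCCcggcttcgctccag

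In the chosen lists of p53 targets few genes were called. Of the targets in arrest and feedback, 1 of 17 tested rose (Mdm2, 5.88%, against 0.693% of all genes) and none fell (against 4.53% of all genes). The median change was 0.02 and 0.25 within the scan, against -0.07 over all genes in both, and 6 genes had an unadjusted p under 0.05 in limma, as had 22.7% of all genes. Gadd45g gave 0.96 (adjusted p = 0.0148), with 1 array left out in each group. Cdkn1a, the inhibitor that p53 uses for arrest, had levels of -2.47, -2.45 and -2.50 in ESRE and of -3.26, -1.94 and -3.11 in ESRL. The groups overlapped (change -0.30, SE 0.29, adjusted p = 0.629). Ccng1 gave 0.60 (adjusted p = 0.187), but 0.99 within the scan (adjusted p = 0.0427). ESRL replicate 1, which is not part of that scan, read 3.98 and the others 5.16 and 4.43. Trp53inp1 gave 0.36, Zmat3 0.37, Btg2 -0.57 and Sesn2 -0.94, with adjusted p from 0.187 to 0.506. Zmat3 alone of these did not overlap, at 4.24, 4.20 and 4.17 in ESRE and 4.52, 4.63 and 4.57 in ESRL.

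Of the targets in apoptosis, 1 of 12 tested rose (Fas, 8.33%) and none fell, against 0.693% and 4.53% of all genes. A single call says little about a list of this size. Their median change was 0.30, and it was 0.19 within the scan. Apaf1, a core of the apoptosome, passed the p threshold at 0.75 and 0.59 on its 2 probes (adjusted p = 0.0115 and 0.0291), under the log2 limit. Bax gave 0.31 (adjusted p = 0.646), with ESRL replicate 1 at 5.01 and the other two at 3.84 and 4.00. Pmaip1, which encodes Noxa, gave 0.29 (adjusted p = 0.473). Bbc3, which encodes Puma, was well above background on 1 of the 6 arrays and was not tested. Of the targets in repair and metabolism, 0 of 10 were called (median -0.06, 5 at an unadjusted p under 0.05), and the peptide transporter gene Tap1 gave 0.90 (adjusted p = 0.0154).

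Phlda3, another p53 target, could not be tested because its spots were outliers on all 6 arrays. As measured, they read 3.23, 3.09 and 3.07 in ESRE and 4.00, 3.85 and 3.83 in ESRL, without overlap.

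Among the p53 family and its regulators, 1 of 13 genes rose (Trp73) and 1 fell, with a median of -0.14. Each is 7.69% of the list, against 0.693% and 4.53% of all genes. Ing1, which encodes a reader of chromatin that works with p53, went from 1.92, 1.74 and 1.49 to 0.07, 1.00 and 0.95. The fall was by 1.04 (adjusted p = 0.0344), the call was kept on leaving out 2 of the 6 arrays, and within the scan the change was -0.85. Trp53 gave -0.78 (adjusted p = 0.297) and 0.05 within the scan, with ESRL replicate 1 at -4.77 and the others at -2.64 and -2.98.

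Immediate early genes are transcribed within minutes of a stimulus. Of 18 tested, Fosl1 rose and Egr3 fell (5.56% each, against 0.693% and 4.53% of all genes), and the median change was -0.12. Fosl1, a subunit of the AP-1 factor, went from -2.56, -2.70 and -2.33 to -0.91, -1.31 and -1.22, a rise of 2.61-fold (log2 change 1.38, SE 0.19, adjusted p = 0.00195). Egr3 was well above background on 1 of the 3 ESRL arrays, so its fall by 1.34 (adjusted p = 0.0456) has no firm size, and the call was lost within the scan (adjusted p = 0.112). Egr1 went from 0.52, 0.54 and 0.53 to -0.41, 0.12 and -0.60, without overlap, and missed the threshold (change -0.83, adjusted p = 0.0533). Fos gave -0.23 and Atf3 0.36. Of 11 NF-kB targets, 0 were called by limma (median -0.19), and 2 had an unadjusted p under 0.05.

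Genes of the stem cell state were not called. Of 21 pluripotency genes, 0 rose and 0 fell by limma, with 4 at an unadjusted p under 0.05 and a median change of -0.31 (-0.26 within the scan) against -0.07 over all genes. Their median level in ESRE was 3.93, and of all probes above 2, 0.187% rose and 0.140% fell. Pou5f1, which encodes Oct4, had levels of 7.20, 7.17 and 7.58 in ESRE and of 7.03, 7.08 and 6.92 in ESRL (change -0.31, adjusted p = 0.588). The Sox2 change was -0.41 from all arrays and -0.12 within the scan, and Klf4 gave -0.53 (adjusted p = 0.256). Esrrb, a nuclear receptor of the pluripotency network, did not overlap on the probe measured on all 6 arrays but missed the threshold (change -0.60, adjusted p = 0.0706), and its other probe, with 1 ESRL array measured, gave -0.35 (adjusted p = 0.477). Nanog could not be tested, since its spots were outliers on all 6 arrays, and read as measured 1.11, 1.00 and 0.84 in ESRE and 0.27, 0.55 and -0.19 in ESRL. Myc was measured on 1 of the 6 arrays.

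Of the 19 germ layer regulators, 0 were called, beside 5.22% of all genes. Their median change was -0.51 (-0.30 within the scan), and 4 genes had an unadjusted p under 0.05 in limma. Gata6 gave -1.52 and narrowly missed the threshold (adjusted p = 0.0513), and Gata4, a regulator of endoderm, gave -0.76 (adjusted p = 0.16). With outlier spots kept, 1 gene of this list was called lower. Of the FGF and Nodal pathway genes, 0 of 19 were called (median -0.24, 5 at an unadjusted p under 0.05), and Lefty1, a target and inhibitor of Nodal, gave 0.37 (adjusted p = 0.508). Lefty1 did not overlap, at 3.82, 3.77 and 3.95 in ESRE and 4.12, 4.22 and 4.31 in ESRL. Its SE of 0.28 was pooled over all arrays, and it was well above background on 0 EDRE and 0 EDRL arrays. Of 13 genes of the two-cell stage, 0 were called (median -0.36, but -0.07 within the scan, with 2 at an unadjusted p under 0.05). Wnt3 gave 0.74 (adjusted p = 0.631), from -1.86, -1.70 and -1.63 in ESRE to -1.30, -0.69 and -0.99 in ESRL. The groups did not overlap, as in 26.9% of all probes measured on the 6 arrays. Its SE of 0.73, pooled over all arrays, exceeds its SD of 0.12 in ESRE and 0.30 in ESRL. Of the 24 Wnt and Frizzled genes, 0 rose and 2 fell (8.33%, against 4.53% of all genes, median of the list 0.12). Wnt11 went from -3.78, -3.31 and -2.73 to -5.26, -6.03 and -4.11 (change -1.85, adjusted p = 0.0125) and was not called within the scan (adjusted p = 0.0873). Wnt10b fell by 1.82 (adjusted p = 4.94e-04) and was also called within the scan, with 1 ESRL array well above background.

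The cell cycle and DNA repair genes showed no calls at 4 h. This held for 19 cyclins, CDKs and CDK inhibitors, 37 DNA replication genes, 36 mitosis genes and 32 genes of damage sensing and double-strand break repair, whose median changes were -0.14, -0.03, -0.17 and -0.06. In these lists 7, 1, 10 and 2 genes had an unadjusted p under 0.05 in limma, beside 22.7% of all genes, and 0 were called within the scan. The median levels of the lists in ESRE were 0.80, 3.16, 3.04 and 0.79. Of all probes tested, 0.603% rose and 0.276% fell at levels from 0 to 2, and 0.187% and 0.140% above 2. At these shares, lists of such sizes would hold few calls or none. The mitotic kinase Plk1 had levels of 4.09, 3.91 and 4.07 in ESRE and of 3.68, 3.48 and 3.76 in ESRL, without overlap (change -0.39, adjusted p = 0.44). Ccnb1, the cyclin of mitotic entry, gave 0.13, and Aurka 0.39 from 1 ESRL and 2 ESRE arrays. H2ax, the histone that is phosphorylated at breaks, passed the p threshold at -0.59 (adjusted p = 0.0483).

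Of 19 PP2A subunits and modulators, 0 were called by limma, beside 5.22% of all genes. Their median change was 0.05 (-0.02 within the scan), with 1 gene at an unadjusted p under 0.05. Ppp2ca, the catalytic subunit, had levels of 3.79, 3.55 and 3.50 in ESRE and of 2.27, 3.50 and 3.39 in ESRL. ESRE replicate 3 and ESRL replicate 2 read the same to this precision, the change was -0.56 (adjusted p = 0.273), and it was -0.23 within the scan, which leaves out ESRL replicate 1. Of 75 ribosomal protein genes 0 were called (median -0.03, 7 at an unadjusted p under 0.05), Rpl12 giving -0.44 and 0.01 within the scan. Likewise 0 of 19 respiratory chain genes, 0 of 7 markers of differentiated cells and 0 of 11 heat shock and stress genes were called, with 3, 1 and 4 at an unadjusted p under 0.05 and medians of 0.00, 0.14 and -0.20, which were -0.11, -0.09 and -0.02 within the scan. Ribosomal protein and respiratory chain genes were bright, with median ESRE levels of 7.17 and 4.81, and of all probes above 2, 0.187% rose and 0.140% fell.

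**Figure D3:**
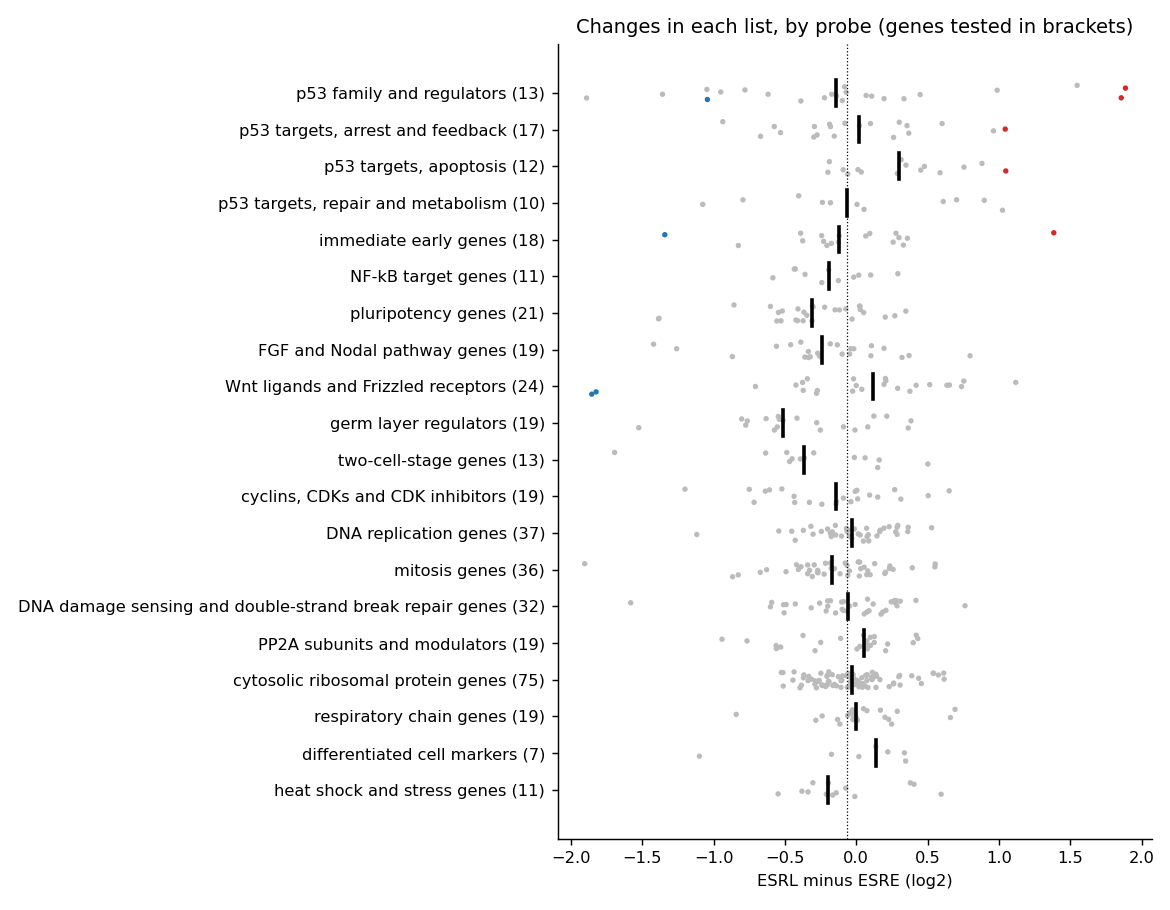
Changes from 15 min to 4 h (ESRL minus ESRE, log2) of the probes in 20 gene lists, red where called higher, blue where called lower and grey otherwise, with a bar at the median over genes and a dotted line at the median of all genes tested. Bars lie between -0.51 (germ layer regulators) and 0.30 (p53 targets of apoptosis), and colored points are few.

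The largest falls of RefSeq genes rested on 2 ESRL arrays. B4galt1, a galactosyltransferase of the Golgi, had levels of -1.34, -0.94 and -0.87 in ESRE and of -4.35 and -5.86 in ESRL replicates 1 and 3. It fell by 4.05 on the log2 scale (16.6 times lower, adjusted p = 1.36e-04). The spot of ESRL replicate 2 was an outlier and left out. As measured it read -0.95, within the range of ESRE, and with outlier spots kept the change was -2.67 (adjusted p = 0.1165).

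Gm14305 and Gm14393, predicted zinc finger genes with close paralogs that the probes may not tell apart, showed the same pattern. Gm14305 went from 0.89, 0.87 and 0.66 to -4.17 and -2.15, and ESRL replicate 2 read 0.98 as measured. Gm14393 went from 0.26 and 0.27 to -3.99 and -2.90, and ESRL replicate 2 read 0.83. They fell by 3.97 and 3.71 (adjusted p = 0.00149 and 0.00169), and neither was called with outlier spots kept (adjusted p = 0.1087 and 0.1075).

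The unnamed transcript AK154344 read -5.14 and -4.89 in ESRL replicates 1 and 3, but -1.25 as measured in replicate 2, against an ESRE mean of -1.88. Its change was -3.14, and -1.88 with outlier spots kept (adjusted p = 0.1571). The transcript with the largest fall of all such, an ultraconserved element, changed by -4.44. Its spot of ESRL replicate 2, also left out, read -0.08 as measured, within the range of ESRE as measured. With outlier spots kept, the element narrowly stayed called (change -2.92, adjusted p = 0.04889). Over all falls, 40 of 1030 called probes had ESRL replicate 2 left out, and in 39 of them its spot, as measured, lay within 1 log2 unit of the ESRE mean. The same was true of 13 of 13 such probes among the rises.

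Falls measured on all ESRL arrays differed in how alike those arrays were. Olfr1257, an olfactory receptor gene, went from -3.09, -2.79 and -2.80 to -5.68, -5.88 and -5.95, a fall by 2.94 (7.67 times lower, adjusted p = 1.69e-04) with an SD of 0.14 in ESRL. Within the scan it was -2.97. Ferd3l, a bHLH factor of neural precursors, went from -1.61, -1.27 and -1.49 to -4.70, -2.97 and -4.77 and fell by 2.69 (adjusted p = 5.19e-04), also within the scan.

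In other genes the ESRL arrays differed widely. Ms4a4c, of a family of membrane proteins of blood cells, went from 0.70, 1.65 and 1.24 to -0.89, -4.78 and -0.19, an SD of 2.47 in ESRL. It fell by 3.15 (adjusted p = 0.0291), and the call was lost on leaving out 3 of the 6 arrays in turn. Milr1, a receptor of mast cells, went from 0.91, 1.25 and 1.08 to -1.02, -3.80 and 0.10, and its fall by 2.66 (adjusted p = 0.0315) was kept on leaving out 2 of the 6. Slc7a15, an amino acid transporter gene, fell from 2.03 ± 0.37 (SD, n = 3) to -0.74 ± 1.52 (change -2.77, adjusted p = 0.00789), but its other probe gave 0.37 (adjusted p = 0.817). None of Ms4a4c, Milr1 and Slc7a15 was called within the scan.

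**Figure D4:**
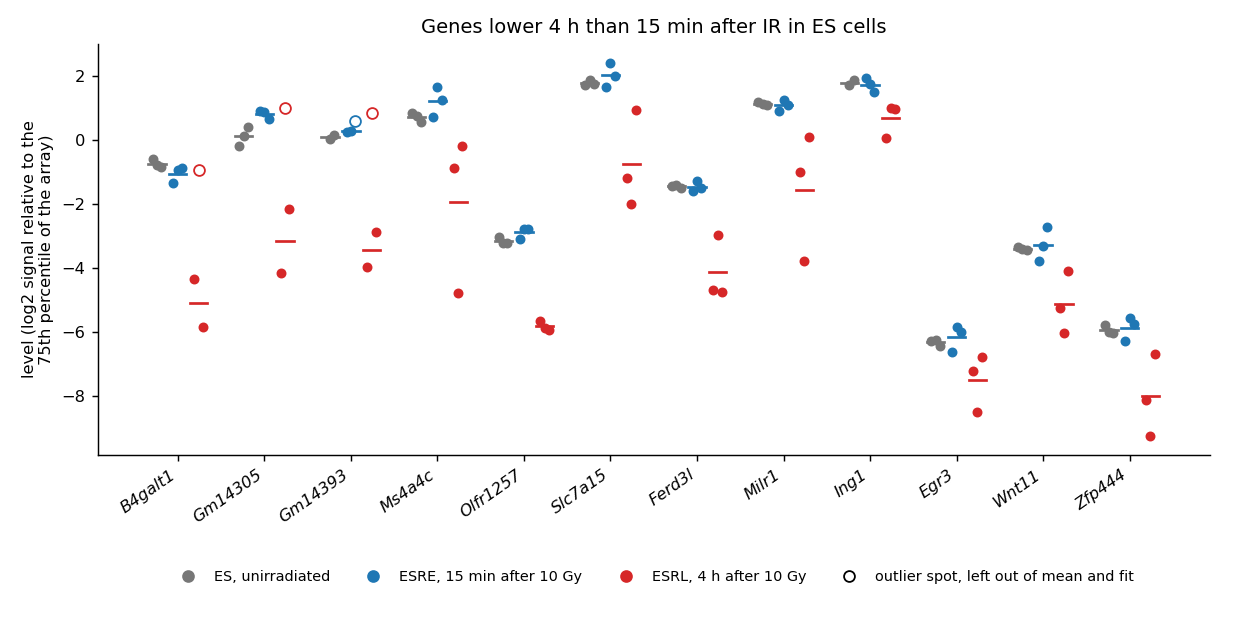
Levels of 12 genes that fell, in each array of ES, ESRE and ESRL (log2 signal minus that of the 75th percentile), with lines at group means and open circles for outlier spots left out. The open ESRL points of B4galt1, Gm14305 and Gm14393 lie at the level of ESRE, while the 3 ESRL points of Olfr1257 lie together near -5.83.

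The genes named Zfp, most of which encode zinc finger proteins, were counted as a family. Of 295 tested, 2 rose (Zfp365 and Zfp750) and 5 fell (Zfp52, Zfp112, Zfp146, Zfp444 and Zfp831), with a median change of -0.08. These are 0.678% and 1.69% of the list, beside 0.693% and 4.53% of all genes. Zfp365 went from 1.63, 1.62 and 1.38 to 2.55 and 2.86, and ESRL replicate 1 was left out (log2 change 1.16, adjusted p = 0.00805). With its outlier spot kept, which read 2.45, the change was 1.08 and the adjusted p 0.056. Zfp444 fell by 2.15 (adjusted p = 0.0118) with 1 ESRL array well above background, and its other probe gave -0.26.

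Families of chemosensory receptors, which were looked at after their values were seen, held many of the dim falls. Of 232 olfactory receptor genes tested, 71 fell (30.6%, against 4.53% of all genes) and 0 rose, and of 78 vomeronasal receptor genes 25 fell (32.1%) and 0 rose. Of their probes tested, 73 of 233 and 31 of 79 were well above background on all 6 arrays, so most entered through 1 group, and the filter sets these shares in part. Their median levels were -4.80 and -5.04 in ESRE and -5.85 for both in ESRL. Of all probes tested, 6.89% fell at levels from -6 to -4, averaged over both groups, and 26.7% under -6. Where all 6 arrays were well above background, 9 of 73 and 4 of 31 receptor probes fell, against 125 of 3629 of all probes from -6 to -4. Of the fallen receptor probes, 9 of 71 and 4 of 25 were well above background on all ESRL arrays. Within the scan 36 and 6 genes fell, without ESRL replicate 1 42 and 11, without ESRL replicate 2 101 and 37, and with normexp background correction 1 and 2.

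The 4 h against 15 min change was also compared with that in ED cells. It differed between the cell types in 1427 of 24131 genes (5.91%), in 573 of which it was more positive in ES cells (2.37%) and in 854 in ED cells (3.54%). EDRE replicates 2 and 3 had 24.4% and 23.8% outlier spots and 49.5% and 55.5% of probes well above background, and every EDRE value within scans comes from replicate 1. Within scans the difference was called in 182 and 516 genes.

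Several genes that rose in ES cells had a positive change in ED cells too. P2rx6 gave 2.35 in ES and 2.51 in ED cells, Trp73 1.88 and 1.28, Scn3b 1.80 and 1.01, and Mdm2 1.04 and 0.86. P2rx6, Trp73 and Scn3b were each well above background on 1 EDRE array and on all EDRL arrays, so the size of their ED change is uncertain, and EDRE of Mdm2 is replicate 1 alone. Tnfrsf18 was well above background on all 3 EDRL arrays and on no EDRE array. For P2rx6, Trp73, Scn3b and Mdm2 the test of the difference gave adjusted p from 0.205 to 0.878, which does not show that the changes are alike. Fas gave 1.05 in ES and 2.06 in ED cells (difference -1.02, SE 0.30, adjusted p = 0.0587), and for its other probe, with 1 EDRE array measured, the difference was -1.68 (adjusted p = 0.0219, within scans 0.0615).

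For Nkx2-9 the difference passed the threshold, with changes of 1.74 in ES and 0.22 in ED cells (difference 1.52, adjusted p = 0.0427, within scans 0.335), 1 EDRE array being well above background. Art4 and Agtr1b, which rose in ES cells, were not well above background on any EDRE or EDRL array, so no ED change is given. Plk1 changed by -0.39 in ES and by -1.99 in ED cells (difference 1.60, adjusted p = 0.0331, within scans 0.114), and Ccnb1 by 0.13 and -0.80 (adjusted p = 0.0743). EDRE of Plk1 is 2 arrays and that of Ccnb1 1 array. Olfr1257 fell by 2.94 in ES cells and changed by -0.97 in ED cells (difference -1.97, adjusted p = 0.0307), also called within scans.

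**Figure D5:**
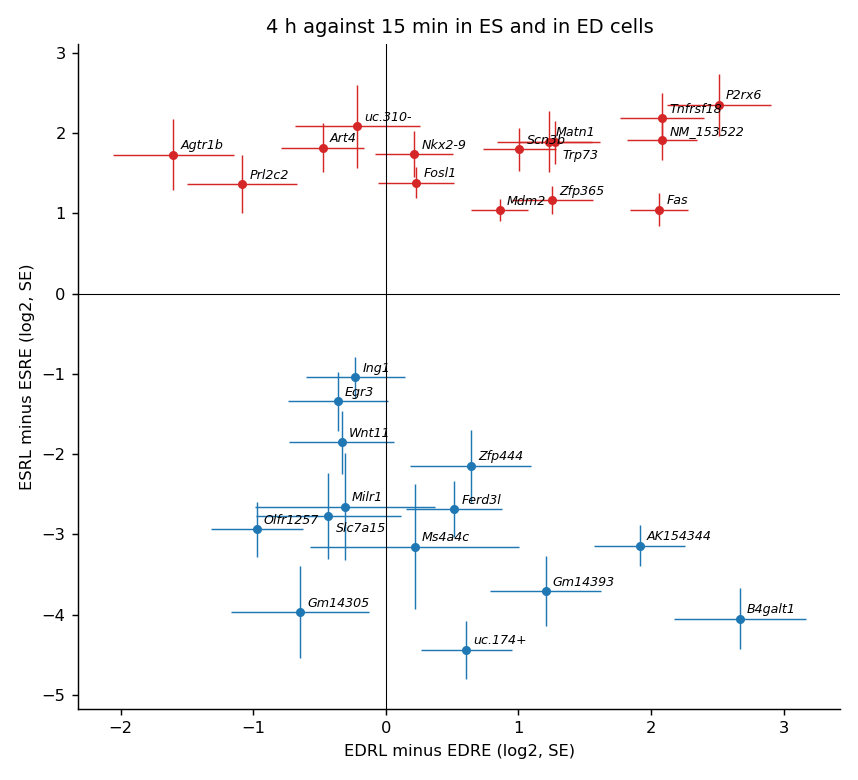
Change from 15 min to 4 h in ES cells (vertical) against that in ED cells (horizontal) for the genes named as called in ES cells, each in log2 with its SE, red where higher and blue where lower; labels that are not gene symbols are unnamed transcripts. Fas lies at 2.06 on the ED axis and Prl2c2 at -1.08, the latter from EDRE levels of -2.28 and -0.30 in replicates 1 and 2. Points of Art4 and Agtr1b rest on ED signals not above background, as does that of Tnfrsf18 for EDRE.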

How the data were processed

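The authors deposited the Agilent Feature Extraction output of each array, whose processed signal is a background-subtracted intensity, and a matrix of log2 values of 30133 probes, which, as checked on the files, are log2 signals minus a constant per array. The submitters' notes name Feature Extraction 9.1, and the file headers 10.7.3.1. After 1417 control and 200 negative control spots were left out, 37246 probes were kept, 22216 with RefSeq names. Spots marked as outliers were left out. From each log2 signal that of the 75th percentile probe on its array was subtracted. The test took probes that the scanner software marked well above background on every array of ESRE or of ESRL. The means of the 6 groups were estimated in 1 linear model (limma 3.58.1, R 4.3.3) that used all 18 arrays. P-values were adjusted over all probes tested (Benjamini-Hochberg), and calls needed an adjusted p below 0.05 and a change of more than 1 in log2. Within the scan, group by scan means were fitted, with 9 residual degrees of freedom. The genes named were 28 chosen genes, the 8 largest rises and 8 falls of RefSeq genes (called, well above background on all arrays, no overlap), 2 unnamed transcripts each way (given in the text only where their values bear on a result), the largest call of each list each way, and 4 differences between cell types each way. Genes outside this rule were named after their values were seen. They include Gadd45g, Apaf1, Tap1, Esrrb, Gata4, Gata6, Trp53, Wnt10b, H2ax and the Zfp genes other than Zfp365 and Zfp444. Lists and genes were chosen with earlier results of these data known. The number of arrays limits the precision. The fit was run on simulated arrays with known changes and independent noise. These held no scan effect, so this run cannot show how the fit behaves under one. In all, 19 alternatives were set at the start and 4 combinations with scan were added after seeing the data. Other experiments of the study are not analysed here.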

Additional observations from a re-analysis of the deposited data

Results flagged for a closer look

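The change from 15 min to 4 h differed between ES and ED cells in 1427 genes by the interaction of time and cell type in limma. Among RefSeq genes well above background on every array of the ESRE, ESRL, EDRE and EDRL groups, the largest differences toward ES cells were those of Cabyr (2.64), a sperm flagellum protein, Pygm (2.50), the glycogen phosphorylase of muscle, Prl2c2 (2.45), a hormone of the prolactin family with close paralogs, and Ung (2.37), the uracil glycosylase of base excision repair. Cabyr changed by 0.31 in ES and by -2.34 in ED cells, Pygm by 0.30 and -2.20, Prl2c2 by 1.37 and -1.08, and Ung by -0.04 and -2.42. Within scans Pygm, Prl2c2 and Ung were called (adjusted p = 0.0053, 0.00208 and 0.0279) and Cabyr was not (adjusted p = 0.0628). For Ung and B4galt1 the EDRE value came from replicate 1 alone. Prl2c2 had EDRE levels of -2.28 and -0.30 in replicates 1 and 2, and replicate 3 was left out. Replicate 1 lay within the EDRL range (-2.51 to -2.28), so the ED fall of Prl2c2 rests on replicate 2. Within scans its change was 1.69 in ES cells and the difference 1.78. For Cabyr and Pygm all EDRE levels lay above those of unirradiated ED cells. No unirradiated ED array shared a scan with EDRE or EDRL, so this cannot be told apart from a difference between scans.

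By the same limits, the largest differences toward ED cells were those of B4galt1 (-6.72), Gm14393 (-4.91), Ggps1 (-3.48), a synthase of isoprenoids, and Gm14305 (-3.32). Ggps1 changed by -1.70 in ES cells (adjusted p = 0.099), with ESRL levels of -5.89, -2.82 and -5.38, and by 1.78 in ED cells. The differences of B4galt1, Gm14393 and Gm14305 rest on ESRL values from which replicate 2 was left out, and with outlier spots kept their adjusted p was 0.0915, 0.05947 and 0.289.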

How the results depend on the processing

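Counts are given as genes higher, genes lower and genes whose change differed between ES and ED cells (157, 1025 and 1427 as reported). Each array set to its median gave 314, 690 and 2590, quantile normalization 226 and 504, and normexp 21, 45 and 85. Probes well above background on all arrays compared gave 100, 158 and 760. Using only the arrays compared gave 35, 89 and 170, and the 9 ES, ESRE and ESRL arrays 182 and 450. Scan as a fixed block gave 138, 437 and 698, and as a random block 146, 954 and 797. Adding to the fixed block, after seeing the data, the median gave 209, 289 and 703, quantile normalization 215, 240 and 570, normexp 37, 74 and 149, and the filter on all 6 arrays 106 and 106. The 4 arrays of the shared scan alone in limma gave 0 and 0, with 2395 probes at an unadjusted p under 0.05, and the methods' t-test after Benjamini-Hochberg 0 and 0, with 3153 probes (227 and 741 genes before adjustment). Without a fold limit 330 genes were higher, and a 2-fold change with no test gave 408, 2578 and 7214. The authors' deposited log2 values gave 262, 607 and 3207. Leaving out 1 array at a time gave 99 (ESRE replicate 2 or 3) to 304 (ESRL replicate 2) higher, 364 (ESRE replicate 2) to 2550 (ESRL replicate 2) lower, and 587 (ESRE replicate 2) to 6397 (EDRE replicate 1) differing. The replicate block gave 142, 917 and 973. Nothing in the labels says whether equal numbers pair the samples. Same-numbered deviations from the group means correlated at 0.079, -0.005 and -0.014, and differently numbered ones at -0.051 to 0.072. With 3 samples in a group, such values cannot decide this. No called value of a named gene changed sign. Among named values that were not called, Bax changed sign under 4 alternatives, Ccnb1 2, Cdkn1a 1, Fos 7 and Rpl12 5. The causes were not tested. Of the fallen probes, 28.4% were well above background on all ESRL arrays, and for the rest the size of the fall is only a bound.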

Other observations

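Among the genes that rose, some that were picked after their values were seen belong to cilia and flagella. Foxj1, the regulator of motile cilia, had levels of -1.37, -1.44 and -1.66 in ESRE and of 0.37, -0.38 and 0.11 in ESRL (change 1.53, SE 0.21, adjusted p = 8.47e-04). Rsph6a, of the radial spoke, rose by 1.71 on 1 probe and gave 0.97 on the other, Ttll6, which modifies tubulin, by 1.25, and Hoatz by 1.10. All of these were also called within the scan except Hoatz, whose change was 0.98 there (adjusted p = 0.0427). Rprm, a mediator of arrest after p53 activation, rose by 1.12 (adjusted p = 0.0108) and gave 0.84 within the scan.

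Some rises, also picked after their values were seen, stood against an ESRE level below that of unirradiated ES cells. Neat1, the RNA scaffold of paraspeckles, had a mean level of 0.95 in ES, -0.08 in ESRE and 1.19 in ESRL. Vmp1, an autophagy protein, had 0.16, -1.37 and 0.19, Ctsj, a placental cathepsin, -0.91, -1.87 and -0.33, and Prl2c2 -0.84, -2.47 and -1.11. For Matn1 the means were -3.16 in ES and -3.11 in ESRE, and for Art4 -5.55 in both. Both comparisons share the ESRE samples. No ES array shared a scan time with an ESRE or ESRL array, so a low ESRE level cannot be told apart from a difference between scans.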
